A study of Streblospio benedicti with 24 samples.

Results

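The comparison described here was that of LP hybrid oocytes with oocytes of the planktotrophic morph, PP, in the marine annelid Streblospio benedicti. LP females were F1 animals with a lecithotrophic LL mother (Long Beach, California) and a planktotrophic PP father (Bayonne, New Jersey), so that LP and PP females had a father of the same morph and differed in the morph of the mother. The members were the 12 libraries with the genotypes LP (replicates 1 to 5) and PP (replicates 1 to 7), out of 24 libraries in all. The other 12 libraries were 5 of the reciprocal hybrid PL and 7 of the lecithotrophic morph LL. Each library was made from the pooled unfertilized oocytes of 1 female, and the labels give no treatment. Because whole clutches were pooled, fewer oocytes with a transcript and less of it in each oocyte cannot be told apart. LP females carried 1 allele of each morph and mitochondria from the LL mother. The labels give no age for the females.

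Oocytes are loaded with maternal mRNA while they grow, and these transcripts direct the first cell divisions of the embryo before its own genome is switched on. Planktotrophic females make many small eggs that hatch into feeding larvae, whereas lecithotrophic females make fewer large eggs whose larvae can live on yolk. An oocyte of a hybrid female is filled by a diploid mother that carries both alleles, so its maternal mRNA reports on that mother's genotype.

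All 5 LP libraries and PP replicate 7 were described by the submitters as 2 technical replicates, and PP replicates 1 to 6 were not. The F1 libraries were also sequenced separately from the parental ones according to the study's methods. The genotype and this label therefore overlapped in all but 1 library of the comparison, and PP replicate 7 was the only PP library that could be set beside LP with the same label. LP libraries held 12600190 to 23165841 counts on genes and PP libraries 13125307 to 43609048. PP replicate 2 stood apart in that 66.1% of its reads had not aligned. The biological coefficient of variation, the spread between libraries beyond counting error, was 0.730 in LP and 0.787 in PP. Oocyte markers could not be checked, because the sources used here name only few of the gene identifiers.

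On the first principal component of the 500 most variable genes (39.2% of the variance) the LP libraries scored 18.9 ± 9.92 (SD, n = 5) and the PP libraries -13.5 ± 20.5 (SD, n = 7). The difference passed a two-sided exact permutation test (p = 0.0114, adjusted p = 0.0227 over 2 components). PP replicate 7 scored 25.2, which lay inside the LP range of 6.30 to 29.9, whereas PP replicates 1 to 6 lay between -42.3 and -8.97. The axis thus separated libraries by the label of 2 technical replicates without exception. The second component held 20.6% of the variance and did not separate the genotypes (exact permutation p = 0.144). LP replicates 1 and 2 scored 32.4 and 24.2 on it and the other LP libraries -10.5 to 0.65.

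**Figure D1:**
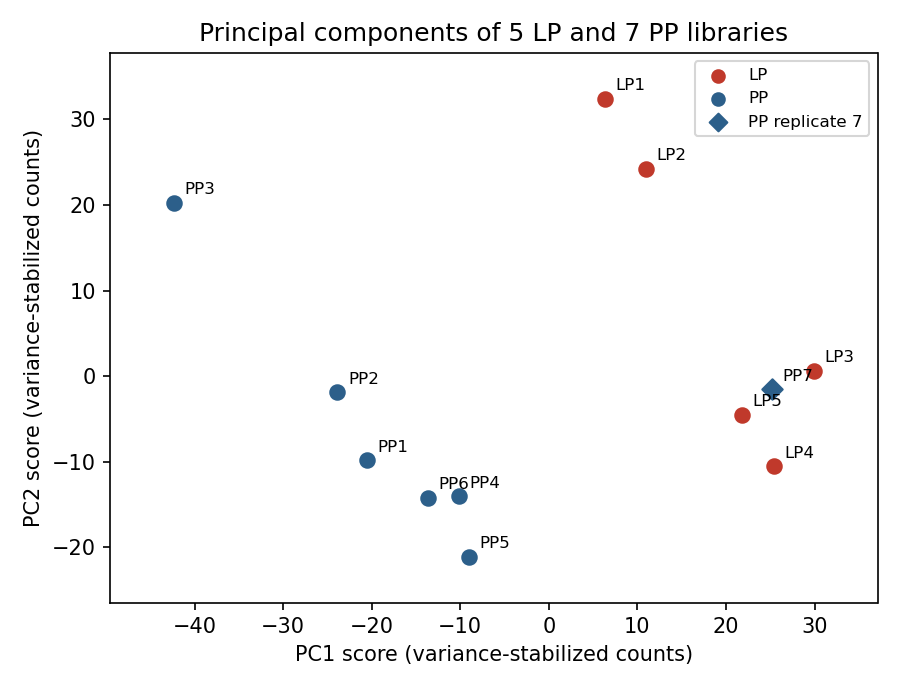
Scores of the 5 LP (red) and 7 PP (blue) libraries on the first and second principal components of variance-stabilized counts; each point is 1 library and the diamond is PP replicate 7. PP replicate 7 (25.2 on the first component) sits among the LP libraries, and PP replicates 1 to 6 lie at or below -8.97.

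Of 10782 genes tested, 188 were called between LP and PP (1.74%), with an adjusted p under 0.1 in edgeR's quasi-likelihood test and a fold change over 1.5. Transcripts of 129 genes were higher in LP (1.2% of genes tested) and those of 59 were lower (0.547%). The median log2 fold change over all genes tested was -0.03, and 1300 genes had an unadjusted p under 0.05. Of the genes tested, 147 (1.36%) had LP and PP libraries that did not overlap in CPM, the counts scaled to a common library size, 106 of them higher and 41 lower in LP. Of the called genes, 70 did not overlap, 53 higher and 17 lower. With genes at 0 in a whole group set to their bound, the median log2 fold change was 3.79 for the genes called higher and -4.34 for those called lower. Each replicate was 1 clutch, and the p-values measure the spread between clutches. The sample names of LP replicates 1, 2 and 3 share a stem, whose meaning the labels do not give, so the 5 LP libraries came from 3 stems. With libraries of the same stem summed, 24 of 11447 genes were called (0.21%), 20 higher and 4 lower in LP. The genes described below that were also called with stems summed were Sbene_G12323, Sbene_G03386, Sbene_G21394, Sbene_G25841, Sbene_G23402, Sbene_G04942, Sbene_G16664, Sbene_G18715, Sbene_G07240, Sbene_G21598, Sbene_G05642 and Sbene_G00796.

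**Figure D2:**
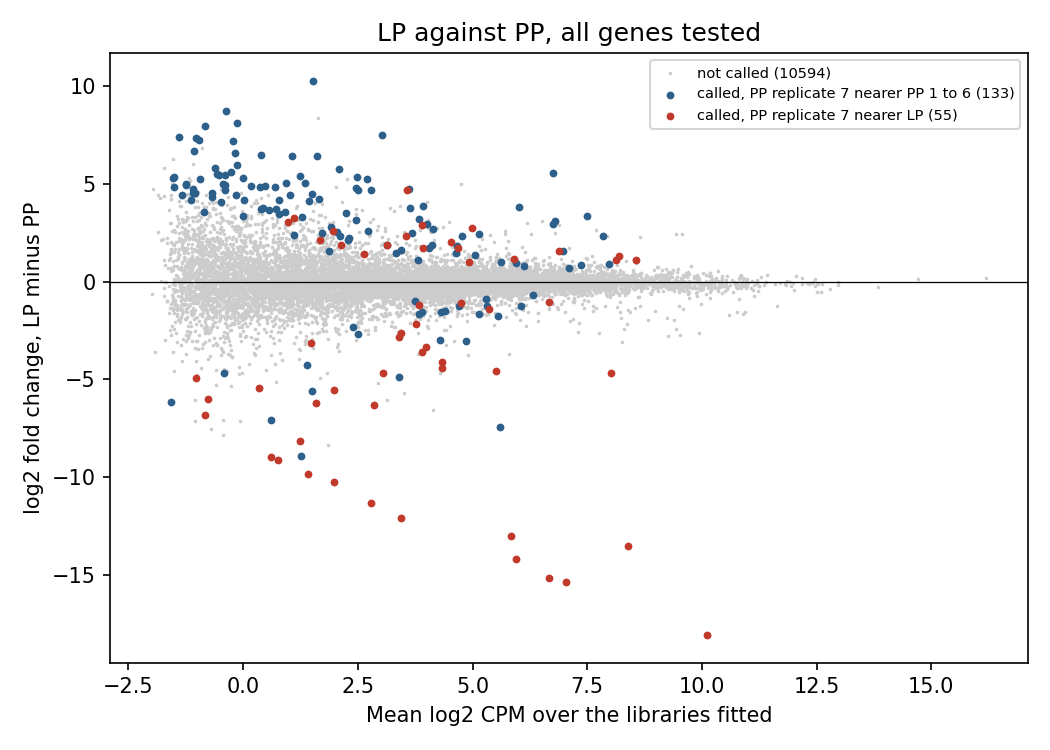
Log2 fold change of LP minus PP (vertical axis) against the mean log2 CPM (horizontal axis) for the 10782 genes tested; each point is 1 gene. Called genes are blue where PP replicate 7 was nearer to the mean of PP replicates 1 to 6 (133 genes) and red where it was nearer to the LP mean (55 genes), and the red genes include those with the most negative values.

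Each called gene was then checked against PP replicate 7. Among the 129 genes called higher in LP, PP replicate 7 was nearer to the mean of PP replicates 1 to 6 for 109 and nearer to the LP mean for 20. Among the 59 called lower, it was nearer to PP replicates 1 to 6 for 24 and nearer to LP for 35. PP replicate 7 took part in these calls, which favours genes where it sits with PP, so the check was repeated with calls that did not use it. Without PP replicate 7, 413 of 10729 genes were called (3.85%), 312 higher and 101 lower in LP. For 168 of the 413 genes (40.7%) PP replicate 7 was nearer to PP replicates 1 to 6, against 44.9% of all genes tested in that fit, and for 245 it was nearer to LP. By direction, PP replicate 7 was nearer to LP for 173 of the 312 genes higher in LP and for 72 of the 101 lower. It lay outside the LP range on the PP side for 128 of the 413 (31.0%, against 19.8% of the genes tested), inside the range for 257 and beyond it for 28. Within the PP morph, the comparison of PP replicate 7 with PP replicates 1 to 6 called 28 of 13501 genes (0.207%), 27 of them higher in PP replicate 7; its spread came from the other groups. Within LL, replicates 6 and 7, which carry the label, differed from replicates 1 to 5 in 124 of 12205 genes (1.02%), 102 of them higher and 22 lower in the libraries with the label. In both of these comparisons the filter on low counts followed the smallest group. A gene counted mainly in libraries with the label could pass, so the directions may depend partly on the filter. In those 245 genes PP replicate 7 was nearer to hybrid libraries with its label than to PP libraries without it. The same held for 5914 of the 10729 genes tested in that fit. Most of those genes were not called, so their share does not show what to expect of called genes.

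**Figure D3:**
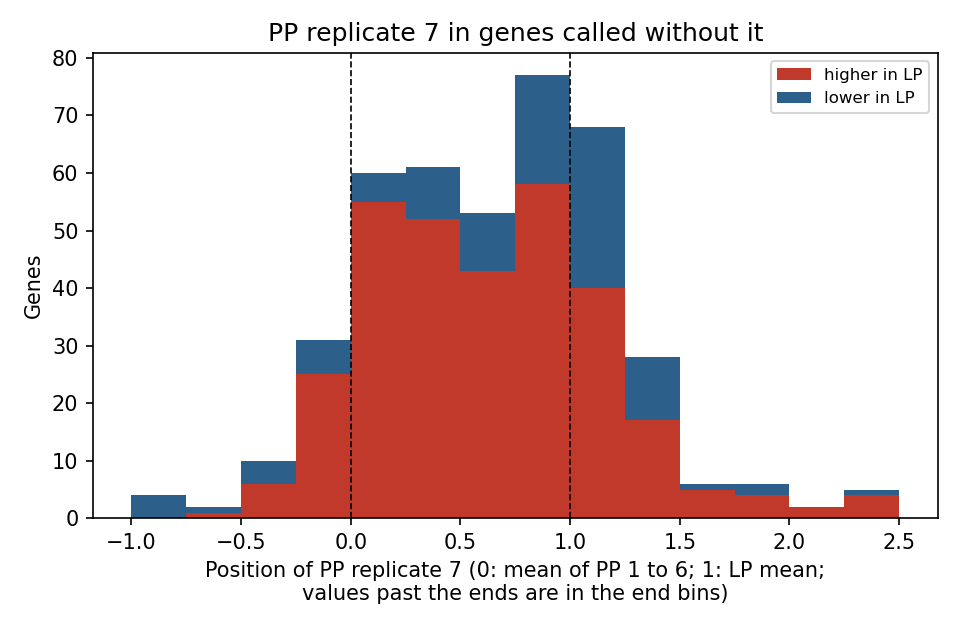
Number of genes (vertical axis) by the position of PP replicate 7 between the mean of PP replicates 1 to 6 (0) and the LP mean (1), for the 413 genes called without PP replicate 7; red genes were higher and blue genes lower in LP. The genes spread over the whole span. Of them 245 lie nearer to 1 than to 0, beside 5914 of the 10729 genes tested in that fit.

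With the label as a covariate in edgeR's fit, 18 genes were called (0.167%), 8 higher and 10 lower in LP, and 13 of them were among the 188. In all 18, PP replicate 7 lay outside the LP range on the PP side. As the only PP library with the label, it weighed heavily in this fit, so its side is no separate check of these genes. This fit had less power: in counts simulated for LP against PP with 200 genes changed 3-fold, it recovered 16% of them and the fit without the covariate 40.5%. DESeq2 with the same covariate, an alternative chosen after seeing the data, called 201 of 11347 genes (1.77%), 63 of them among the 188. Set against PP replicate 7 alone, with the spread taken from the other groups because 1 library has none of its own, 2 genes were called (0.0148%), of which Sbene_G12323 was also among the 188. The other, Sbene_G08961, had 266 to 495 CPM in LP and 23.4 CPM in PP replicate 7, but 206 to 549 CPM in the other PP libraries, so that it set PP replicate 7 apart rather than LP.

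Sbene_G12323 was the 1 gene called in the main comparison and in all 26 alternatives. Its level in LP was 1.17, 7.97, 2.14, 4.50 and 8.09 CPM in replicates 1 to 5. In PP it ranged from 14.9 to 76.0 CPM with a median of 33.2, and PP replicate 7 had the highest value. The 5 LP libraries were all below the 7 PP libraries. The log2 fold change was -3.03 (SE 0.50, adjusted p = 0.00287 in edgeR's quasi-likelihood test), -3.68 with the label as a covariate (adjusted p = 0.0105 in edgeR) and -4.01 against PP replicate 7 alone (adjusted p = 0.0137 in edgeR with the spread of the other groups, which assumes that this library varies like them). The levels were 29.1 to 60.4 CPM in PL and 9.17 to 37.4 CPM in LL, so that LP was below every library of the other 3 genotypes. LP was lower than PL by a log2 difference of -3.28 (adjusted p = 0.0171 in edgeR) and than LL by -2.33 (adjusted p = 0.0366 in edgeR). These comparisons share the LP libraries and are not independent of each other.

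Transcripts of Sbene_G03386 were not counted in any LP library. PP libraries had 1.35 to 4.28 CPM with a median of 2.73, again with the highest value in PP replicate 7, which held 103 counts. The LP level was at least 86.8-fold lower, with the floor set at 3 counts over the group (adjusted p = 0.00768 in edgeR, 0.0458 with the label as a covariate). Counts were present in 4 of 5 PL libraries and in 6 of 7 LL libraries, and LP against PL did not pass the test (adjusted p = 0.151 in edgeR). The PL and LL libraries at 0 were PL replicate 1 and LL replicate 7. Every library at 0 thus carried the label of 2 technical replicates.

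Sbene_G22710 had 0.333 to 2.58 CPM in LP and 4.64 to 15.1 CPM in PP, with 13.4 CPM in PP replicate 7. The groups did not overlap, and the log2 fold change was -2.69 (SE 0.58, adjusted p = 0.0292 in edgeR, 0.0616 with the label). Sbene_G12796 varied within PP, with 82.9 to 239 CPM in PP replicates 1, 3, 4 and 7 and 0.413 to 0.798 CPM in replicates 2, 5 and 6. LP libraries had at most 1.62 CPM, so that the groups overlapped although the gene was called (adjusted p = 0.0271 in edgeR). With stems summed neither Sbene_G22710 (adjusted p = 0.232 in edgeR) nor Sbene_G12796 (0.244) passed the test.

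Among the genes higher in LP, Sbene_G21394 was called in the main comparison and in every alternative except that against PP replicate 7 alone. It had 317, 94.4, 253, 224 and 313 CPM in LP replicates 1 to 5 and 12.1 to 40.2 CPM in PP, with a median of 23.6 and 25.8 CPM in PP replicate 7. The groups were far apart, with a log2 fold change of 3.36 (SE 0.36, adjusted p = 1.37e-05 in edgeR, 0.0432 with the label). Its level was 86.2 to 289 CPM in PL and 179 to 546 CPM in LL.

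Sbene_G25841 had 6.13, 6.34, 12.2, 19.8 and 18.8 CPM in LP replicates 1 to 5. It was at 0 in PP replicates 2, 3, 6 and 7, and the highest PP value was 0.218 CPM. The log2 fold change was 7.53 (SE 0.84, adjusted p = 1.37e-05 in edgeR, 0.0432 with the label). PL libraries had 4.31 to 15.9 CPM and LL libraries 2.39 to 27.4 CPM, so that PP was the only one of the 4 genotypes with nearly no counts of this gene.

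Sbene_G23402 had 34.7 to 80.3 CPM in LP and 1.70 to 6.60 CPM in PP, with 1.95 CPM in PP replicate 7 (log2 fold change 3.83, SE 0.42, adjusted p = 1.37e-05 in edgeR). Sbene_G04942 had 42.7 to 298 CPM in LP and 0.908 to 4.40 CPM in PP (5.56, SE 0.91, adjusted p = 0.00281 in edgeR). Sbene_G16664 had 0.753 to 5.08 CPM in LP and at most 0.243 CPM in PP (4.43, SE 0.68, adjusted p = 0.00130 in edgeR). In each of these genes PP replicate 7 lay with PP, and each was called with the label as a covariate. Those are not separate checks, because that fit leaned on PP replicate 7.

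Sbene_G18715 was at 0 in all 7 PP libraries and had 0.644 to 1.46 CPM in LP, at least 52.4-fold higher (adjusted p = 8.9e-04 in edgeR, 0.0635 with the label). Sbene_G07240 had 1.0 to 3.39 CPM in LP and at most 0.0709 CPM in PP (adjusted p = 2.59e-04 in edgeR). These levels are low, but all LP libraries were above all PP libraries in both genes.

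**Figure D4:**
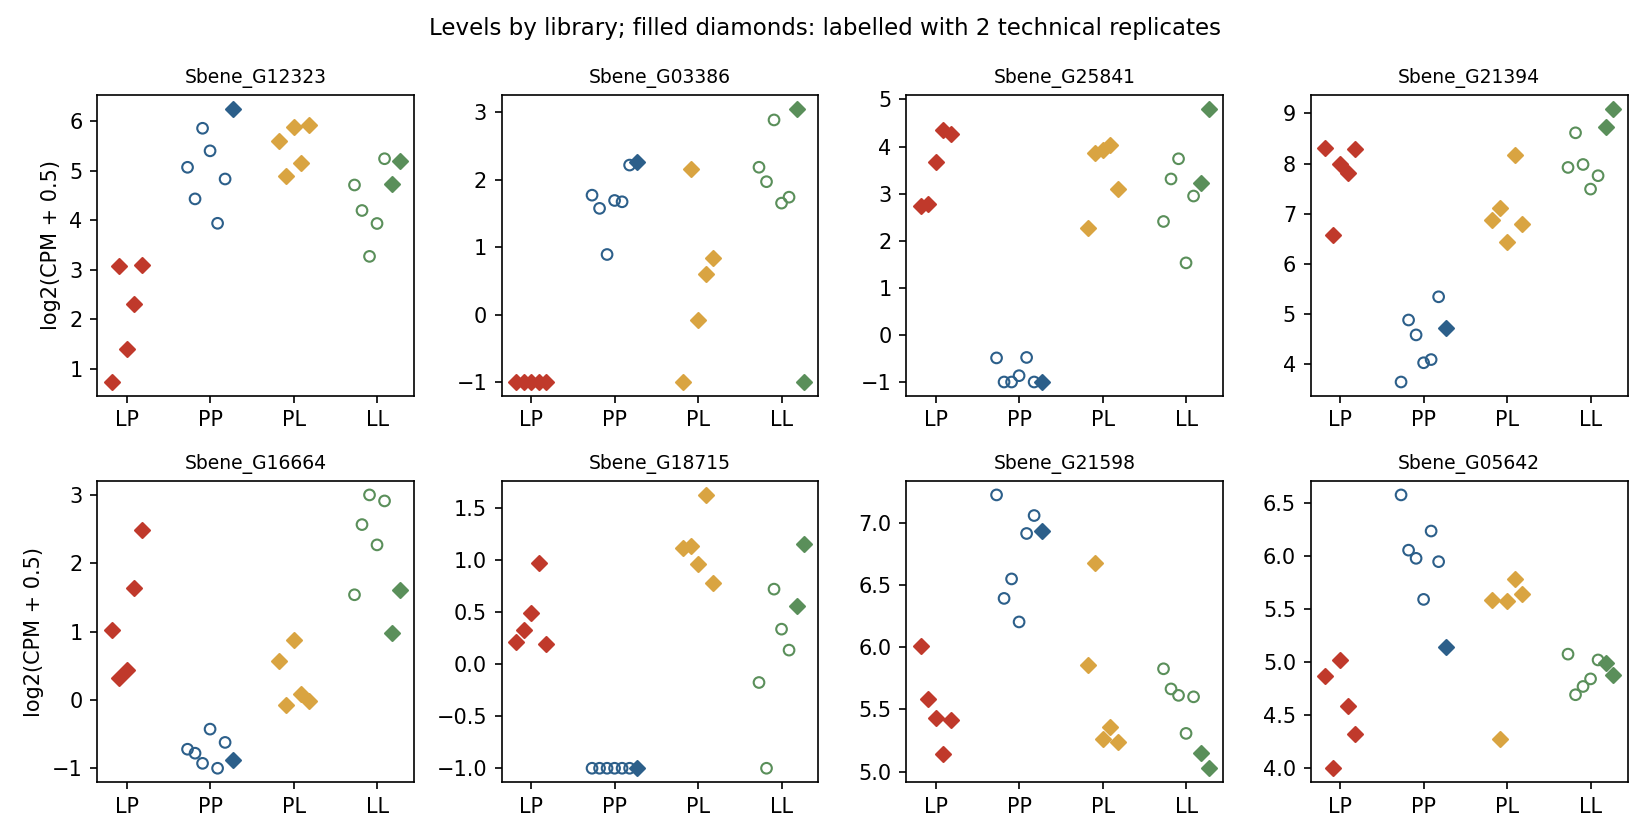
Level of 8 genes as log2(CPM + 0.5) in each library (1 point) of LP, PP, PL and LL; filled diamonds are libraries described as 2 technical replicates and open circles are the rest, with no mean or error drawn. LP lies below all other libraries for Sbene_G12323, and for Sbene_G25841 and Sbene_G18715 the filled PP diamond lies with the open PP circles.

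Other genes that did not overlap were called by edgeR only without the covariate. Sbene_G22095 and Sbene_G13204 were at 0 in all 7 PP libraries, PP replicate 7 included, and had 0.75 to 4.38 CPM and 0.627 to 3.15 CPM in LP. They were at least 153-fold and 99.9-fold higher in LP (adjusted p = 0.0109 and 0.0271 in edgeR). In LL both were at 0 in replicates 1 to 5 and counted in replicates 6 and 7, which carry the label, and the adjusted p with the label as a covariate was 0.354 and 0.306 in edgeR, and 0.0412 and 0.213 in DESeq2. With stems summed neither passed the test (adjusted p = 0.102 and 0.156 in edgeR). Sbene_G17844 had 159 counts in LP and 2 in PP, both in PP replicate 7. The ratio was 160, with a 95% counting interval of 43.5 to 1329 that pools reads and leaves out the spread between clutches. In LL this gene had at most 0.123 CPM in replicates 1 to 5, and 3.07 and 0.773 CPM in replicates 6 and 7. Its adjusted p in edgeR was 0.0271, 0.340 with the label as a covariate and 0.158 with stems summed.

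Some genes with higher CPM, a level not divided by gene length, changed by less. Sbene_G11626 had 274 to 414 CPM in LP and 97.7 to 263 CPM in PP (log2 fold change 0.92, SE 0.21, adjusted p = 0.0389 in edgeR). Sbene_G21598 had 34.7 to 64.0 CPM in LP and 73.2 to 149 CPM in PP, with 122 CPM in PP replicate 7 (-1.26, SE 0.26, adjusted p = 0.0226 in edgeR). Sbene_G05642 had 15.4 to 32.0 CPM in LP and 34.8 to 95.2 CPM in PP (-1.41, SE 0.26, adjusted p = 0.0109 in edgeR), and there PP replicate 7 was the lowest PP library. With the label as a covariate none of these 3 passed the test in edgeR (adjusted p = 0.783, 0.354 and 0.354), and DESeq2 called Sbene_G05642 (adjusted p = 0.0913). Sbene_G22089 had 50.2 to 68.5 CPM in LP and 69.8 to 200 CPM in PP, with PP replicate 7 the lowest PP library. Its log2 fold change was -1.03 (SE 0.26, adjusted p = 0.0579 in edgeR) and -0.068 with the label as a covariate (adjusted p = 0.991 in edgeR).

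Low transcripts with the same split included Sbene_G14290 and Sbene_G00955, which were at 0 in all PP libraries and reached 3.75 and 1.37 CPM in LP, at least 55.8-fold and 36.8-fold higher (adjusted p = 0.0696 and 0.0368 in edgeR). For Sbene_G14290 that value was from LP replicate 4, and the other LP libraries had 0.0627 to 0.365 CPM. In LL it was at 0 in replicates 1 to 5 and at 1.44 and 0.591 CPM in replicates 6 and 7. Sbene_G00955 had counts in LL replicates 2, 5, 6 and 7. Neither gene passed in edgeR with the label as a covariate (adjusted p = 0.725 and 0.409) or with stems summed (0.160 and 0.136).

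In further genes lower in LP without overlap, PP replicate 7 lay above the LP range. Sbene_G05986 had 0.0833 to 2.36 CPM in LP and 2.68 to 49.5 CPM in PP, with 29.4 CPM in PP replicate 7 (log2 fold change -4.86, SE 1.12, adjusted p = 0.0389 in edgeR). Sbene_G13225 had at most 0.429 CPM in LP and 0.584 to 7.01 CPM in PP (-4.27, adjusted p = 0.0667 in edgeR). Sbene_G08279 had counts in only 2 LP libraries and 0.413 to 4.59 CPM in PP (-4.66, adjusted p = 0.0806 in edgeR). Sbene_G19697 and Sbene_G15834 had 2.14 to 6.41 CPM and 3.79 to 6.01 CPM in LP. In PP both were highest in replicates 5 and 6, at 97.1 and 54.1 CPM for Sbene_G19697 and 106 and 85.7 CPM for Sbene_G15834, and the other PP libraries had 10.8 to 27.4 CPM and 10.5 to 22.7 CPM. For Sbene_G19697 PP replicate 7, at 10.8 CPM, was the lowest PP library and nearer to the LP mean than to that of PP replicates 1 to 6. PP replicates 5 and 6 share a stem in their sample names, whose meaning the labels do not give. None of these 5 genes was called with the label as a covariate in edgeR (adjusted p = 0.238 to 0.418), and DESeq2 with that covariate called all 5 (adjusted p = 0.00925 to 0.0819).

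The most negative fold changes belonged to genes where PP replicate 7 had no counts. Of 26216 genes, 11 had 10 or more counts in each of PP replicates 1 to 6 and 0 in all LP libraries. Of these 11, 10 were at 0 in PP replicate 7 as well. The same 10 genes were at 0 in all 5 PL libraries and in LL replicates 6 and 7, and were counted in all of LL replicates 1 to 5. The exception was Sbene_G03386, described above, which had counts in PP replicate 7 but was at 0 only in libraries with the label. One of the 10, Sbene_G10774, had 650 to 3274 CPM in PP replicates 1 to 6 and up to 4126 CPM in LL, and 0 in all 13 libraries with the label. Sbene_G02080, Sbene_G10577, Sbene_G12146 and Sbene_G10277 had the same pattern. Sbene_G04388 was close to it, with 473 to 807 CPM in PP replicates 1 to 6, 0.0416 CPM in PP replicate 7 and 4 counts in all LP libraries together. For the 10 genes, presence followed the label in all 24 libraries, within PP and within LL too. With the label as a covariate the log2 fold change of Sbene_G10774 between LP and PP went from -18.1 to 0.39.

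In the other direction, 6 of 26216 genes had 10 or more counts in every LP library and 0 in PP replicates 1 to 6. PP replicate 7 held counts of 4 of them: 127 of Sbene_G02868, 194 of Sbene_G14868, 171 of Sbene_G20008 and 15 of Sbene_G16727. It held none of Sbene_G13204 and Sbene_G22095. With a minimum of 1 count, 54 genes met the rule and 45 of them had a count in PP replicate 7. In the reverse direction 17 genes met it, and 16 of them had none in PP replicate 7. PP replicate 7 had a count for 13279 genes, more than any other PP library (9946 to 12495). These numbers therefore have no expected rate to be read against.

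**Figure D5:**
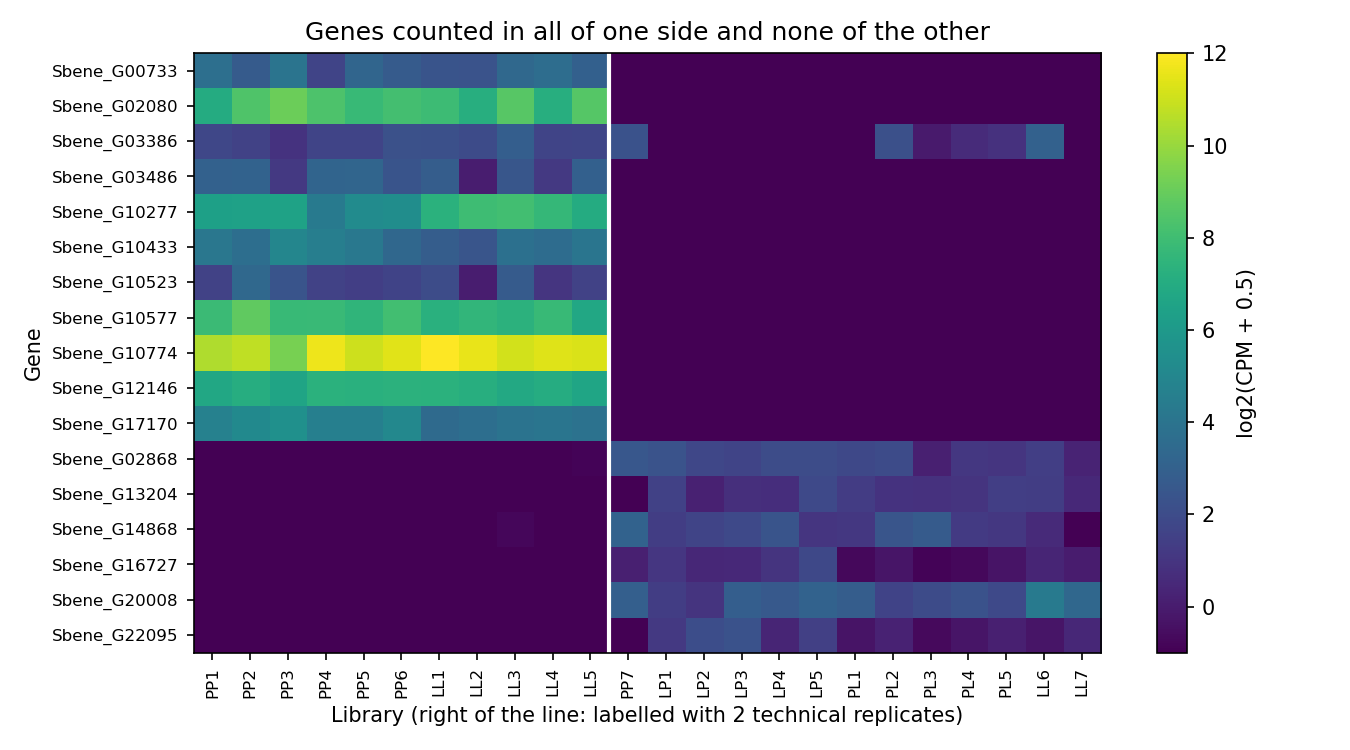
Level as log2(CPM + 0.5) by colour for the 17 genes (rows) with 10 or more counts in all of PP replicates 1 to 6 and none in LP, or the reverse, in each of the 24 libraries (columns); the white line divides libraries without and with the label of 2 technical replicates. For 10 of the upper 11 genes every library right of the line is at 0, and Sbene_G03386 is the exception.

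The study's criterion for exclusive genes was applied here as a group mean under 10 normalized counts in one genotype and over 150 in the other. Of 26216 genes, 22 met it, 5 high in LP and 17 high in PP. The 5 were Sbene_G25841, Sbene_G00796, Sbene_G13848, Sbene_G26078 and Sbene_nc_G03322. Sbene_G25841 was over 50 normalized counts in all 5 LP libraries, Sbene_G00796 in 4 and Sbene_G13848 in only 2 of them. Of the 17 high in PP, PP replicate 7 was itself under 10 in all but Sbene_G00726, Sbene_G04522, Sbene_G12796 and Sbene_G16524. The 17 included Sbene_G10774, Sbene_G02080, Sbene_G10577, Sbene_G12146 and Sbene_G10277, at 0 in every library with the label. Sbene_G00726, Sbene_G02690, Sbene_G14018, Sbene_G15507 and Sbene_G16524 were not called, and Sbene_G14018 was over 50 in only 1 PP library. Without PP replicate 7, 37 genes met the criterion, 20 high in LP and 17 high in PP.

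Non-coding genes, which were known by their identifiers, were described as a list. Of 5995 such genes, 1453 had a count in LP or PP and 128 passed the filter on low counts, which used all 4 genotypes. A gene low in PP could pass through counts in another genotype, so direction and median may depend partly on the filter. Of the 128 non-coding genes tested, 13 were called (10.2%), all higher in LP, beside 1.74% of all genes. The median log2 fold change was 2.09 over the 128 genes, against -0.03 over all genes tested. The LP libraries varied widely in this class: the 13 genes summed to 79.6 and 195 CPM in LP replicates 1 and 2, 23.7 CPM in replicate 3, and 4.41 and 8.59 CPM in replicates 4 and 5. PP libraries had 0.567 to 5.66 CPM, and PP replicate 7, with 5.66 CPM, was the highest of them. The sum was 5.32 to 42.8 CPM in PL and 38.0 to 318 CPM in LL. None of the 13 was called with the label as a covariate in edgeR, DESeq2 with that covariate called 2 of them, Sbene_nc_G03322 and Sbene_nc_G10354 (adjusted p = 0.0322 and 0.0470), and the LP and PP libraries overlapped in all 13. The count of non-coding genes called was 0 with stems summed, where LP replicates 1 to 3 became 1 library, and 0 in a fit of only the 12 LP and PP libraries. It was 5 without PP replicate 1, 6 without LP replicate 2 or PP replicate 6, and 31 without PP replicate 7.

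Sbene_nc_G14058 shows the pattern, with 23.6, 83.0, 6.91, 0.666 and 2.79 CPM in LP replicates 1 to 5 and 0.0255 to 2.87 CPM in PP (adjusted p = 0.0559 in edgeR). Its highest PP value was that of PP replicate 7, and the groups overlapped. Over all genes, non-coding transcripts took 0.0358% ± 0.0363 (SD, n = 5) of the counts in LP and 0.00995% ± 0.00499 (SD, n = 7) in PP. The two-sided exact permutation test gave p = 0.0290, which did not pass after adjustment over 4 library measures (adjusted p = 0.116). Without LP replicate 1 or 2 the p rose to 0.0697 or 0.0727 in the same exact permutation test. How the counting treated strand is not given in the sources used here, so reads of overlapping genes may be mixed.

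The study's text names 12 genes of transcriptional control and signalling, and these were read as a list because few other identifiers carry a name. Forkhead box, paired-box, kruppel-like and homeobox proteins bind DNA and regulate transcription, polycomb proteins keep genes silent through chromatin, frizzled proteins are receptors for Wnt ligands, and Notch proteins are receptors for signals between touching cells. Of the 12, 10 were tested and 0 were called in the main edgeR comparison (beside 1.74% of all genes), and their median log2 fold change was 1.58. DESeq2 called 2 of them (beside 4.28% of all genes), Sbene_G09676 and Sbene_G06517, and with the label as a covariate 2 others, Sbene_G05398 and Sbene_G09677. Among the edgeR alternatives, Sbene_G09676 was called with 1 RUVg factor, with the replicate block and without PP replicate 3 (adjusted p = 0.0750, 0.0954 and 0.0559), and Sbene_G06517 against PP replicates 1 to 6 (adjusted p = 0.0925 in edgeR). The study had picked the 12 genes on these samples.

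Of the 6 Notch copies, Sbene_G09676 had 0.365, 0.878, 2.38, 0.125 and 1.79 CPM in LP replicates 1 to 5 and at most 0.434 CPM in PP, with 0 in 4 PP libraries. Its log2 fold change was 3.32 (SE 1.03, adjusted p = 0.146 in edgeR, 0.0231 in DESeq2). Sbene_G06517 was at 0 in all PP libraries and in 2 LP libraries, and reached 0.572 CPM in LP (adjusted p = 0.126 in edgeR, 0.0628 in DESeq2). Sbene_G09677 was counted in every library, with 22.3 to 43.3 CPM in LP and 2.58 to 28.8 CPM in PP. The ranges overlapped, and the log2 fold change of 1.38 did not pass the test (SE 0.61, adjusted p = 0.358 in edgeR). In DESeq2 with the label as a covariate its log2 fold change was 3.49 (adjusted p = 0.00112). PP replicate 7 had the lowest of all its values. Sbene_G15020 had 0.753 to 12.9 CPM in LP and 0.290 to 3.96 CPM in PP (1.85, SE 0.69, adjusted p = 0.246 in edgeR). Sbene_G18208 had the opposite sign, with 0 to 2.57 CPM in LP and 0 to 7.11 CPM in PP (-1.61, SE 1.49, adjusted p = 0.748 in edgeR), and its groups overlapped. Sbene_G13608 had at most 0.248 CPM in any LP or PP library and was not tested. As near-identical copies can share reads, the split between Notch copies is uncertain.

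The polycomb gene Sbene_G10227 had 44.8 to 90.7 CPM in LP and 14.3 to 65.1 CPM in PP, where PP replicate 7 was the highest (log2 fold change 0.71, SE 0.31, adjusted p = 0.354 in edgeR). The paired-box gene Sbene_G17489 had 0 to 2.70 CPM in LP and 1.24 to 9.82 CPM in PP (-2.11, SE 0.99, adjusted p = 0.395 in edgeR). The frizzled-5 gene Sbene_G05398 had 0 to 1.57 CPM in LP and 0 to 0.424 CPM in PP (2.54, SE 1.22, adjusted p = 0.406 in edgeR, and 7.15, adjusted p = 0.00366, in DESeq2 with the label as a covariate). PP replicate 7, on which the fit with the label leaned, was at 0 for this gene, as were PP replicates 2, 4 and 5 and LP replicate 4. The forkhead gene Sbene_G06980 had 0.501 to 0.958 CPM in LP and was at 0 in 4 PP libraries (adjusted p = 0.505 in edgeR). The groups overlapped in all 4 genes.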

How the data were processed

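Oocyte RNA of 12 females, 5 LP and 7 PP, was compared within a fit of all 24 libraries. The deposited files hold whole-number read counts per gene. According to the study's methods the authors trimmed reads with TrimGalore, removed rRNA with SortMeRNA, aligned to the planktotrophic reference genome with HISAT2 and counted with HTSeq-count (versions not given in the sources used here). Rows of unassigned reads were dropped, leaving 26216 genes. Counts were fitted in R 4.3.3 with edgeR 4.0.16 (quasi-likelihood test, TMM scaling, filterByExpr, 4 group means) and Benjamini-Hochberg adjustment over all genes tested. A gene was called at an adjusted p under 0.1 and a fold over 1.5. DESeq2 1.42.0 gave the alternative test, the variance-stabilized values and normalized counts (median of ratios). CPM are TMM-scaled, and 0.5 was added before log2. The study's RUVg step was not repeated with its gene list; 1 factor from 1000 other genes was an alternative.

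The members, lists and tests were chosen with earlier results of these data known. Named genes were, in each direction, the 7 called genes without overlap with the largest fold change and the 4 with the highest level, the 3 with the largest fold change among those where PP replicate 7 was nearer LP, the 3 with the smallest p with the label as a covariate, those called against PP replicate 7 alone, and up to 5 by the criterion of means. Of the genes named by these rules, Sbene_G13885, Sbene_G14599, Sbene_G16581, Sbene_G06852, Sbene_G16592 and Sbene_G11898 were not described above. The remaining genes called with the label, and the genes absent from one side, were chosen after their values were seen. Genes carry a name only where the running text of the study gives one, and names seen only in pictures of its supplement, a set of 4 reference genes among them, were not used. In simulated counts for LP against PP (200 genes changed 3-fold), edgeR recovered 40.5% with 5 false calls of 86, and DESeq2 52.5% with 34 of 139. Same-numbered LP and PP libraries did not deviate together (correlations of -0.28 to 0.19), so numbers were not used as pairs.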

Additional observations from a re-analysis of the deposited data

Results flagged for a closer look

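Within each genotype, the highest or lowest of the log2(CPM + 0.5) values was compared with its neighbour by Dixon's criterion for the genes named. Of 112 groups checked, 12 had a library that stood apart, and chance gives about 1 in 20. PP replicate 7 stood apart from the other PP libraries in 8 of them. Part of the genes were named because PP replicate 7 was near LP or because they were absent from one side. Neither these 8 nor the 12 that include them can therefore be read against that rate. PP replicate 7 was at -1.0, the value of no counts, for Sbene_G10774, Sbene_G02080, Sbene_G10577, Sbene_G12146 and Sbene_G10277, and at -0.88 for Sbene_G04388, below the other PP libraries in all 6. It was above them for Sbene_G17844 (-0.78) and Sbene_G26078 (0.62).

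The other libraries that stood apart were LP replicate 4 for Sbene_G14290 (2.09), LP replicate 2 for Sbene_G21394 (6.57), PP replicate 4 for Sbene_nc_G03322 (0.74) and PP replicate 3 for the Notch copy Sbene_G09676 (-0.10). Sbene_G12323 was singled out because its change from PP differed between the reciprocal hybrids, by a log2 difference of -3.28 between LP and PL (adjusted p = 0.0171 in edgeR's quasi-likelihood test).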

How the results depend on the processing

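The count of 188 called genes (129 higher and 59 lower in LP) moved with the setting. DESeq2 called 565 (354 higher, 211 lower), an adjusted p of 0.05 or less kept 78 (55, 23), a fit of only the 12 LP and PP libraries called 56 (30, 26), the label as a covariate 18 (8, 10), LP against PP replicate 7 alone 2 (1, 1), and libraries with the same ID stem summed 24 (20, 4). Only LP and PL libraries were summed by stem in that fit. Summing PP replicates 5 and 6 instead left 128 (83, 45). With each library left out in turn, 106 to 413 were called (66 to 312 higher, 30 to 101 lower). The lowest count came without LP replicate 1 or PP replicate 1 (106 each) and the highest without PP replicate 7 (413), and 113, 122 and 109 were called without LP replicate 3, PP replicate 5 and PP replicate 6. A replicate block, although numbers did not pair the samples, gave 432 (338, 94). Of 2 alternatives chosen after seeing the data, LP against PP replicates 1 to 6 called 567 (447, 120) and DESeq2 with the label as a covariate 201 (107, 94). With LP against PP replicate 7 alone left aside, 9 of the 188 genes were called in every setting, Sbene_G12323 among them. The cause of these shifts was not tested.

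PP replicate 7 was nearer to PP replicates 1 to 6 in 70.7% of the called genes but in 40.7% of those called without it. The criterion of means gave 22 genes, 40 with an upper limit of 100, 13 with a lower limit of 5, and 20 to 37 with each library left out (37 without PP replicate 7). The difference in the share of counts on non-coding genes was 0.0258 percentage points, and 0.0109 to 0.0323 with each library left out, with an exact permutation p of 0.0697 without LP replicate 1 (0.0236) and 0.0727 without LP replicate 2 (0.0109). Against PP replicate 7 alone the log2 fold change became 0 for Sbene_G10774, Sbene_G02080, Sbene_G10577, Sbene_G12146 and Sbene_G10277, and 0.079 for Sbene_G04388. With the label as a covariate it became 0.39 for Sbene_G10774, 1.45 for Sbene_G04388 and 1.36 for Sbene_G10277, and in DESeq2 with that covariate 0.92 for Sbene_G10774, 0.40 for Sbene_G02080, 0.13 for Sbene_G10577, 1.73 for Sbene_G04388, 0.52 for Sbene_G12146 and 1.69 for Sbene_G10277. None of these values passed the test. At this spread, differences of 3-fold were often missed, as the simulated counts show.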
